A study of Mus musculus with 18 samples.

Results

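Hippocampi of mice exposed to intermittent hypoxia treatment (IHT) for 5 days (IH5D) were compared with those of control mice (Ctrl), on 3 arrays per group, which are 6 of the 18 arrays of the series. The arrays were chosen by their group labels, and no measured value entered the choice. All mice were C57BL/6J males, 10 weeks old when the experiments began. IHT ran for 8 h a day in repeated 3 min cycles, in which nitrogen flowed for 1 min and room air for 2 min, so that inspired oxygen went from 21% to 5% and back. IH5D mice were killed in the late afternoon, right after the last of 5 daily sessions. Ctrl mice received no IHT, and the hour at which they were killed is not given in the sources used here. The other arrays came from mice kept in normoxia for 2 days after the same 5 days (IH5DR2), mice exposed for 28 days (IH28D) or kept for 28 days without exposure (Ctrl28), and mice reared for 12 months (12m). The question was which hippocampal transcripts differ after short exposure to a pattern of oxygen loss that resembles sleep-disordered breathing.

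Repeated short falls of oxygen occur in sleep apnea, and rodents exposed to them serve as a model of its effects on memory. In low oxygen the prolyl hydroxylases that mark hypoxia-inducible factor (HIF) for destruction lose activity, so that HIF accumulates as a protein and switches on genes for glycolysis, vessel growth and red cell production. The hippocampus is a region of memory formation whose CA1 pyramidal neurons are sensitive to lack of oxygen, and a large share of its energy is spent on glutamate synapses.

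Values are MAS5 signals, the summary that the array software computes from matched pairs of probes, and each gene is represented by its probe set of highest mean signal. A gene rose or fell where the limma fit of all 18 arrays gave an adjusted p below 0.05 over 11656 genes tested, and differences are given as IH5D minus Ctrl on the log2 scale with the standard error (SE). Signals of different probe sets cannot be set against each other. The median signal was 19.3 to 20.1 on the Ctrl arrays and 20.6 to 22 on the IH5D arrays, and log2 signals correlated at 0.962 to 0.966 within Ctrl, 0.971 to 0.973 within IH5D and 0.921 to 0.970 between them. The gap between probes at the 3' and 5' ends of Actb and Gapdh, a measure of RNA integrity, was 0.34 to 0.47 in Ctrl and 0.46 to 0.53 in IH5D on the log2 scale. With this gap as a covariate 2912 genes passed, among them all 760 of the reported fit in the same direction. The slope of the covariate was fitted over all 18 arrays, where Ctrl28 replicate 1 had a gap of 2.39. Without that array and with no covariate 2727 genes passed, again with all 760. The part of RNA integrity in the calls was not tested. On a contrast of long with short genes, given with the gene spans, the 3 Ctrl arrays lay below all other arrays of the series. Whether arrays stand for different mice is not stated in the labels, so the p-values measure the spread between arrays. In whole hippocampus, fewer cells of a type and less RNA per cell cannot be told apart.

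After 5 days of IHT, 629 of 11656 genes rose (5.4%) and 131 fell (1.12%), 760 in all, while the median over all genes was -0.09 and 41.4% of differences were positive. Few changes were large: 100 of the rises exceeded 1 and 7 of the falls exceeded 1 in size on the log2 scale. The IH5D arrays lay above all Ctrl arrays in 2163 genes (18.6%) and below them in 2667 (22.9%), and 756 of the 760 genes called did not overlap. Among the 11656 genes, 3375 had an unadjusted p below 0.05. The call depended on single arrays. Without Ctrl replicate 2 or without Ctrl replicate 3, 0 genes passed (1928 and 2594 at an unadjusted p below 0.05). Without IH5D replicate 1 there were 18, and without IH5D replicate 3 there were 9. All 760 genes kept their sign in each of these fits. For the 756 whose groups did not overlap, leaving out an array cannot change the sign. Ctrl and IH5D arrays of the same number deviated together. With the replicate number as a block over all 18 arrays 434 of 11656 genes passed (377 higher, 57 lower). List counts under this block over 18 arrays are to be read beside these. In the fit of the 6 arrays alone with this block, called the paired fit below, 4092 passed, 1951 higher (16.7%) and 2141 lower (18.4%). No label states a pairing, and the block was adopted from the shared deviation in these same arrays. Counts of the paired fit are therefore a description and not separate support. With each array centred on its median, 501 genes rose and 211 fell, so that 70.4% of calls were rises in place of 82.8%.

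The largest rises included genes of RNA handling, signalling and ion flow. Fnip1, a partner of folliculin in nutrient sensing, had signals of 113, 75.7 and 96.5 in Ctrl and 236, 193 and 225 in IH5D (log2 difference 1.21 ± 0.30, adjusted p = 0.0292). Kcnq1ot1, the long noncoding RNA that silences an imprinted cluster, stood at 61.3, 34.9 and 43.8 in Ctrl and 149, 85.2 and 87.2 in IH5D (log2 difference 1.19 ± 0.24, adjusted p = 0.014). In both genes every IH5D array lay above every Ctrl array, and Ctrl array 2 was the lowest. Srek1, a splicing regulatory protein, was at 75.1, 62.3 and 43.6 in Ctrl and 141, 142 and 119 in IH5D (log2 difference 1.18 ± 0.30, adjusted p = 0.0302). Ssb, the La protein that binds the ends of newly made small RNAs, was at 68.1, 92.9 and 94.6 in Ctrl and 205, 180.5 and 190.3 in IH5D (log2 difference 1.18 ± 0.34, adjusted p = 0.0482, and adjusted p = 0.0572 with the replicate block over 18 arrays). Trpm7, a magnesium and calcium channel fused to a kinase, was at 114, 65.8 and 61.6 in Ctrl and 236, 161 and 139 in IH5D (log2 difference 1.17 ± 0.33, adjusted p = 0.0424, and adjusted p = 0.0594 with the block). The Srek1, Ssb and Trpm7 groups did not overlap either, with the smallest gap in Trpm7, between Ctrl array 1 and IH5D array 3. Rap2c, a small GTPase of the Ras family, had the widest Ctrl spread of these rises, at 159.5, 62.0 and 97.5 in Ctrl and 229.9, 194 and 237 in IH5D (log2 difference 1.15 ± 0.23, adjusted p = 0.0132).

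The largest falls were smaller in size than the largest rises. Emp2, a tetraspan membrane protein, stood at 198, 224 and 188 in Ctrl and 101, 149 and 114 in IH5D (log2 difference -0.76 ± 0.19, adjusted p = 0.0321). Alad, the second enzyme of heme synthesis, stood at 163, 194 and 164 in Ctrl and 114, 115 and 93.0 in IH5D (log2 difference -0.70 ± 0.17, adjusted p = 0.0284). Ciapin1, which helps to assemble iron-sulfur clusters of cytosolic proteins, was at 156, 119 and 123 in Ctrl and 81.1, 85.4 and 70.6 in IH5D (log2 difference -0.74 ± 0.18, adjusted p = 0.029). Emp2 and Alad were highest on Ctrl array 2 and Ciapin1 on Ctrl array 1. Rhbdf1, an inactive rhomboid protein that guides ADAM17, was at 115, 139 and 103 in Ctrl and 71.1, 65.0 and 75.1 in IH5D (log2 difference -0.75 ± 0.18, adjusted p = 0.0277). Mcrs1, a nucleolar protein, was at 422, 476 and 334 in Ctrl and 256, 228 and 272 in IH5D (log2 difference -0.69 ± 0.16, adjusted p = 0.023). Raly, an RNA-binding protein of the hnRNP family, was at 159, 175 and 165 in Ctrl and 100.1, 96.9 and 114 in IH5D (log2 difference -0.69 ± 0.16, adjusted p = 0.0257). Vps51, a subunit of a complex that tethers vesicles to the Golgi, was at 203, 193 and 167 in Ctrl and 93.4, 151 and 111 in IH5D (log2 difference -0.69 ± 0.18, adjusted p = 0.0382, and adjusted p = 0.0518 with the block). None of the 7 overlapped between groups, and Ctrl array 2 held the highest value in 5 of them.

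**Figure D1:**
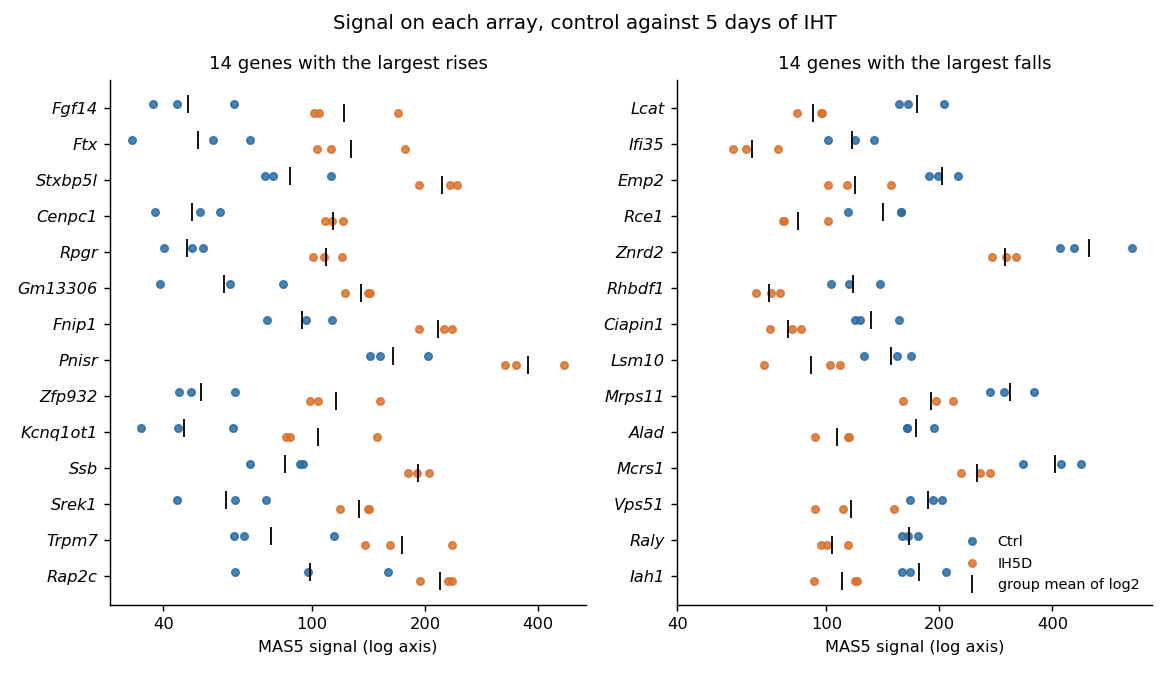
MAS5 signal (log axis) on each Ctrl and IH5D array of the 14 genes with the largest rises (left) and the 14 with the largest falls (right) among genes that passed and whose brighter group averaged a signal of 100 or more, with ticks at the group means. The arrays of the 2 groups overlap in none of these genes, which is part of the rule that chose them.

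The gene for the inducible HIF subunit rose after 5 days of IHT, whereas none of the HIF target genes tested passed. Hif1a signals were 432, 302 and 287 in Ctrl and 545, 490.2 and 619 in IH5D (log2 difference 0.71 ± 0.17, adjusted p = 0.0274), so that the groups did not overlap and Ctrl array 1 lay nearest to IH5D. Its second probe set above the minimum signal differed by 0.67. Side by side, Hif1a averaged 489 ± 67.5 in IH5DR2, 559 in IH28D, 665 ± 147 in Ctrl28 and 751 in 12m (mean, with SD where given, n = 3 arrays), so that mice without IHT at 28 days were at a level as high as IH5D. Of 10 genes for HIF subunits and oxygen sensors 1 rose and 0 fell (median -0.02). The partner subunit Arnt stood at 65.6, 56.4 and 46.3 in Ctrl and 74.8, 74.8 and 71.5 in IH5D (log2 difference 0.41 ± 0.21, adjusted p = 0.203). Epas1, the gene for HIF-2 alpha, was at 1254, 1351 and 1347 in Ctrl and 1259, 1302 and 1256 in IH5D (log2 difference -0.05 ± 0.10, adjusted p = 0.761). Arnt was higher on each IH5D array without passing, and Epas1 overlapped. The hydroxylase gene Egln1, itself a HIF target, differed by 0.11, Egln2 by -0.43 (adjusted p = 0.0752) and Vhl, which encodes the ligase that recognizes hydroxylated HIF, by -0.17. Egln2 was lower on each IH5D array without passing.

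Of 21 HIF target genes 0 rose and 0 fell in the limma fit (6 had an unadjusted p below 0.05, all higher), with a median of -0.04 beside -0.09 over all genes. In 5 of the 21 (23.8%) the IH5D arrays lay above all Ctrl arrays, near the 18.6% of all genes. In 0 of the 21 they lay below all Ctrl arrays, against 22.9% of all genes. With the replicate block over the 6 arrays 6 rose and 4 fell, where 16.7% and 18.4% of all genes did. Vegfa, the vessel growth factor, was at 79.6, 82.6 and 83.2 in Ctrl and 147, 114 and 95.3 in IH5D (log2 difference 0.51 ± 0.21, adjusted p = 0.12). Pdk1, the kinase that closes pyruvate dehydrogenase, was at 172, 133 and 130.0 in Ctrl and 203, 198 and 194 in IH5D (log2 difference 0.46 ± 0.14, adjusted p = 0.0596). Ero1a, an oxidase of protein folding, was at 184, 170.1 and 162 in Ctrl and 226, 215 and 284 in IH5D (log2 difference 0.48 ± 0.18, adjusted p = 0.0901). Kdm3a, a histone demethylase, was at 146, 116 and 127 in Ctrl and 179, 168 and 185 in IH5D (log2 difference 0.46 ± 0.18, adjusted p = 0.119). All 4 lay higher on each IH5D array and missed the threshold, and other probe sets of Pdk1 and Ero1a differed by as little as -0.01 and -0.08. The glucose transporter gene Slc2a1 differed by -0.07, the mitophagy receptor gene Bnip3 by -0.07, the lactate dehydrogenase gene Ldha by -0.32, the phosphoglycerate kinase gene Pgk1 by -0.13 and the mTOR inhibitor gene Ddit4 by 0.08, with adjusted p = 0.827, adjusted p = 0.715 and adjusted p = 0.846 for Slc2a1, Bnip3 and Ddit4. Egln3, Adm, Hmox1 and Epo, which are further known targets, lay below the minimum signal and were not tested.

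**Figure D2:**
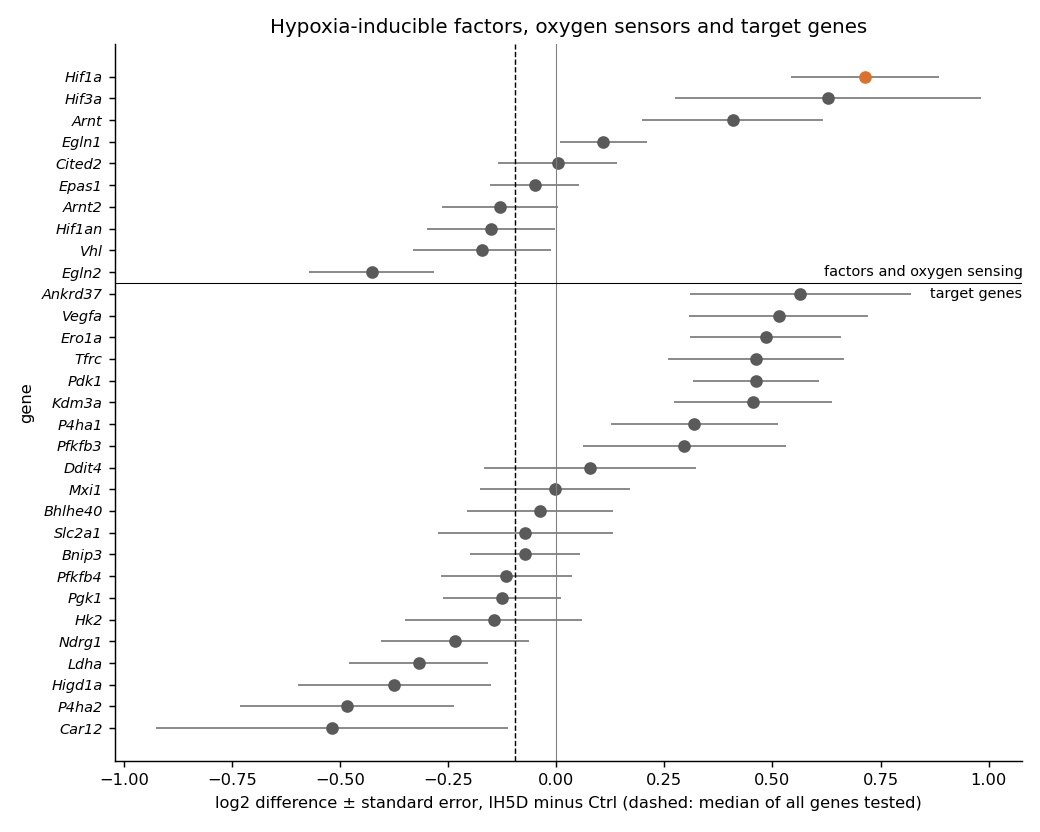
Log2 difference of IH5D minus Ctrl with its standard error for 10 genes of HIF subunits and oxygen sensing (above the line) and 21 HIF target genes (below it), with the median of all genes tested as a dashed line. Hif1a, in orange, was the one gene that passed, and the targets spread on both sides of 0, from -0.52 for Car12 to 0.56 for Ankrd37.

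The promoters of Hif1a and of the targets Pdk1 and Ero1a are shown because HIF acts through a short core sequence, the hypoxia response element, spelled ACGTG or GCGTG and printed in capitals in either orientation. The sequences are those of RefSeq on GRCm38.p6, 250 bases before to 50 after a transcript start, read 5′ to 3′ on the strand of the gene. They lie at chr12:73907617-73907916 on the plus strand for Hif1a, chr2:71872974-71873273 on the plus strand for Pdk1 and chr14:45318523-45318822 on the minus strand for Ero1a.
Hif1a: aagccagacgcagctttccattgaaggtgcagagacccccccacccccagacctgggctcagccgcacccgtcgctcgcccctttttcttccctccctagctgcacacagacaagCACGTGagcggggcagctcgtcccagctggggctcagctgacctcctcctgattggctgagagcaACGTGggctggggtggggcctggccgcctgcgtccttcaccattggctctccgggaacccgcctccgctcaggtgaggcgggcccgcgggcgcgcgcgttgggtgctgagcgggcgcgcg
Pdk1: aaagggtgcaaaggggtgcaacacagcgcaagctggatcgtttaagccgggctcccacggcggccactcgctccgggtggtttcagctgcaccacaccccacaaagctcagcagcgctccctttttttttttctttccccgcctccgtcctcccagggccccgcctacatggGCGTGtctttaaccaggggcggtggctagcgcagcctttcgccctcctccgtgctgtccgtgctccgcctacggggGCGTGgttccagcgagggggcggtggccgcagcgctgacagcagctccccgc
Ero1a: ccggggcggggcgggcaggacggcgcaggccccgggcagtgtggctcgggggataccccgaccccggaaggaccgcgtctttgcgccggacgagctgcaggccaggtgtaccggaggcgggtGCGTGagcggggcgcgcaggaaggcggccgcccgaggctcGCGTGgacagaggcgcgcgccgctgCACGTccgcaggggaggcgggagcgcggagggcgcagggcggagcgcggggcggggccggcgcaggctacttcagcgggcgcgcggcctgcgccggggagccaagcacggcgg
In the windows shown Hif1a has 3 matches, of which 2 overlap, Pdk1 has 2 and Ero1a has 3. Windows searched but not shown had 0 to 2 matches. The first listed window of Vegfa has 0 and another has 2. For Kdm3a the first has 1 and the others 0, and a further window of Pdk1 has 0. Such matches are common in windows of this length. Of 27025 genes with a RefSeq promoter, 43.8% have at least 1, as have 63.8% of the 9472 tested genes matched to it, 66.0% of 497 that rose, 69.4% of 111 that fell, and 16 of 19 HIF targets. A match is a description of letters and was not tied to binding here.

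Genes that splice and bind RNA rose more often after 5 days of IHT than all genes did. Of 78 splicing factors 17 rose (21.8%, beside 5.4% of all genes) and 0 fell (median 0.18). With the replicate block 11 rose over 18 arrays and 36 over the 6 arrays, where 12 fell. In that fit of the 6 arrays 16.7% of all genes rose and 18.4% fell. Hnrnpa2b1, an RNA-binding protein of splicing and transport, was at 1127, 932 and 980.5 in Ctrl and 1584, 1507 and 1613 in IH5D (log2 difference 0.63 ± 0.11, adjusted p = 0.00886). Tra2b, a splicing activator, was at 499, 445 and 488 in Ctrl and 798, 727 and 853 in IH5D (log2 difference 0.73 ± 0.14, adjusted p = 0.0124), and its relative Tra2a at 184, 166 and 167 in Ctrl and 271, 267 and 256 in IH5D (log2 difference 0.62 ± 0.12, adjusted p = 0.0132). The Ctrl values of these 3 genes lay within a narrow range and all below those of IH5D. Kinase genes of the spliceosome rose as well, Prpf4b by 0.87 (adjusted p = 0.0158) and Clk4 by 1.09. Prpf39, a factor of the U1 particle, rose by 1.47, Srsf1 by 0.57, Srsf6 by 0.48 and Srsf10 by 1.05. Of the 78 differences 29 were negative, and 5 of these had an unadjusted p below 0.05.

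Among RNA-binding proteins of neurons 9 of 34 rose (26.5%, beside 5.4% of all genes) and 0 fell (median 0.46). With the replicate block 7 rose over 18 arrays and 19 over the 6 arrays, where 16.7% of all genes rose. Elavl2, a stabilizer of neuronal messenger RNAs, was at 337, 314 and 346 in Ctrl and 710.2, 519 and 757 in IH5D (log2 difference 0.98 ± 0.15, adjusted p = 0.00791). Mbnl2, a splicing factor of the mature brain, was at 618, 445 and 564 in Ctrl and 1134, 942 and 898 in IH5D (log2 difference 0.88 ± 0.17, adjusted p = 0.013). Cpeb4, which controls translation at synapses through the polyadenylation of messenger RNA, was at 649, 369 and 522 in Ctrl and 1098, 1008 and 891 in IH5D (log2 difference 0.99 ± 0.22, adjusted p = 0.0211). Celf4, a regulator of excitability, was at 1182, 931 and 996 in Ctrl and 1767, 1616 and 1624 in IH5D (log2 difference 0.69 ± 0.14, adjusted p = 0.0132). None of the 4 overlapped between groups, and in each the lowest value was on Ctrl array 2. Elavl3 rose by 0.49, Celf2 by 0.82, Rbfox1 by 0.83, Qk by 0.66 and Cpeb3 by 0.70. Of the others, Fmr1, whose loss causes fragile X syndrome, differed by 0.73, Elavl4 by 0.66, Ptbp1 by -0.44 and Nova2 by -0.24, and none of these passed.

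Of 17 genes of microRNA processing and silencing 5 rose (29.4%, beside 5.4% of all genes) and 0 fell (median 0.32). With the block over 18 arrays 4 rose. Dicer1, the enzyme that cuts microRNA precursors, was at 113, 90.6 and 88.6 in Ctrl and 130.2, 149.5 and 152 in IH5D (log2 difference 0.57 ± 0.13, adjusted p = 0.0258). Tnrc6a, a scaffold of the silencing complex, was at 352, 245 and 252 in Ctrl and 518, 419 and 499.8 in IH5D (log2 difference 0.77 ± 0.16, adjusted p = 0.014). Cnot7, a deadenylase, was at 608, 489 and 534 in Ctrl and 842, 814 and 865 in IH5D (log2 difference 0.63 ± 0.12, adjusted p = 0.0118). None of the 3 overlapped between groups. Of 20 noncoding RNA genes 5 rose (25%, beside 5.4% of all genes) and 0 fell (median 0.51). Under the replicate block 4 rose over 18 arrays and 11 over the 6 arrays, where 16.7% of all genes rose. Meg3, an imprinted RNA, was at 1831, 1008 and 1361 in Ctrl and 3115, 2315 and 2968 in IH5D (log2 difference 1.03 ± 0.18, adjusted p = 0.0103), and its 11 probe sets differed by 0.77 to 1.42. Snhg11 was at 1409, 778 and 1211 in Ctrl and 2419, 1916 and 2233 in IH5D (log2 difference 0.99 ± 0.20, adjusted p = 0.0132). Snhg14, the host of the small RNAs of the Prader-Willi region, was at 157, 106 and 191 in Ctrl and 399.7, 285 and 259 in IH5D (log2 difference 1.07 ± 0.27, adjusted p = 0.032). The nuclear RNA Malat1 was at 1055, 725 and 905 in Ctrl and 1858, 1762 and 1645 in IH5D (log2 difference 0.99 ± 0.35, adjusted p = 0.0845): all IH5D arrays were above all Ctrl arrays, yet its wide spread in Ctrl28, with a mean of 3071 ± 1692, went into the pooled error. Its mean in IH5DR2 was 3451 ± 432. In Meg3, Snhg11 and Malat1 Ctrl array 2 was the lowest of the 6.

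Of 92 genes for chromatin remodellers and histone-modifying enzymes 9 rose and 1 fell (median 0.25), beside 5.4% and 1.12% of all genes. With the replicate block 6 rose and 1 fell over 18 arrays. Over the 6 arrays 38 rose and 6 fell, where 16.7% and 18.4% of all genes did. Sirt1, a deacetylase tied to NAD, was at 48.2, 31.9 and 25.1 in Ctrl and 86.1, 76.1 and 72.2 in IH5D (log2 difference 1.2 ± 0.29, adjusted p = 0.0278). Hdac2, a deacetylase that restrains synaptic genes, was at 308, 193 and 309.7 in Ctrl and 447, 397 and 474 in IH5D (log2 difference 0.73 ± 0.17, adjusted p = 0.0246). The class IIa deacetylase gene Hdac5 went the other way, at 409, 479 and 424 in Ctrl and 306, 272 and 299 in IH5D (log2 difference -0.58 ± 0.12, adjusted p = 0.0159). Hdac7 rose by 0.87, Kdm1b by 0.92, Kmt2c by 0.78, Smarca1 by 0.78 and Chd1 by 0.95. Of 257 zinc finger Zfp genes 18 rose (7.0%, beside 5.4% of all genes) and 0 fell (median 0.24), with 13 rising under the block over 18 arrays. Zfp131 was at 125, 111 and 102 in Ctrl and 226, 187 and 254 in IH5D (log2 difference 0.97 ± 0.16, adjusted p = 0.00886) and Zfp326 at 127, 98.8 and 91.1 in Ctrl and 214, 180.0 and 212 in IH5D (log2 difference 0.95 ± 0.17, adjusted p = 0.0103), both without overlap. Zfp386 rose most, by 1.52. Of 17 genes of cohesin, condensin and centromeres 2 rose and 0 fell, 16 of the 17 differences were positive and the median was 0.62. With the block 1 rose over 18 arrays and 12 over the 6 arrays, where 16.7% of all genes rose. Of 53 nuclear transport genes 4 rose (7.55%) and 0 fell (median 0.06), and 3 rose with the block over 18 arrays. Among these rises was Thoc1, a subunit of the messenger RNA export complex, at 74.6, 44.7 and 68.0 in Ctrl and 137, 106 and 126 in IH5D (log2 difference 1.0 ± 0.21, adjusted p = 0.018).

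**Figure D3:**
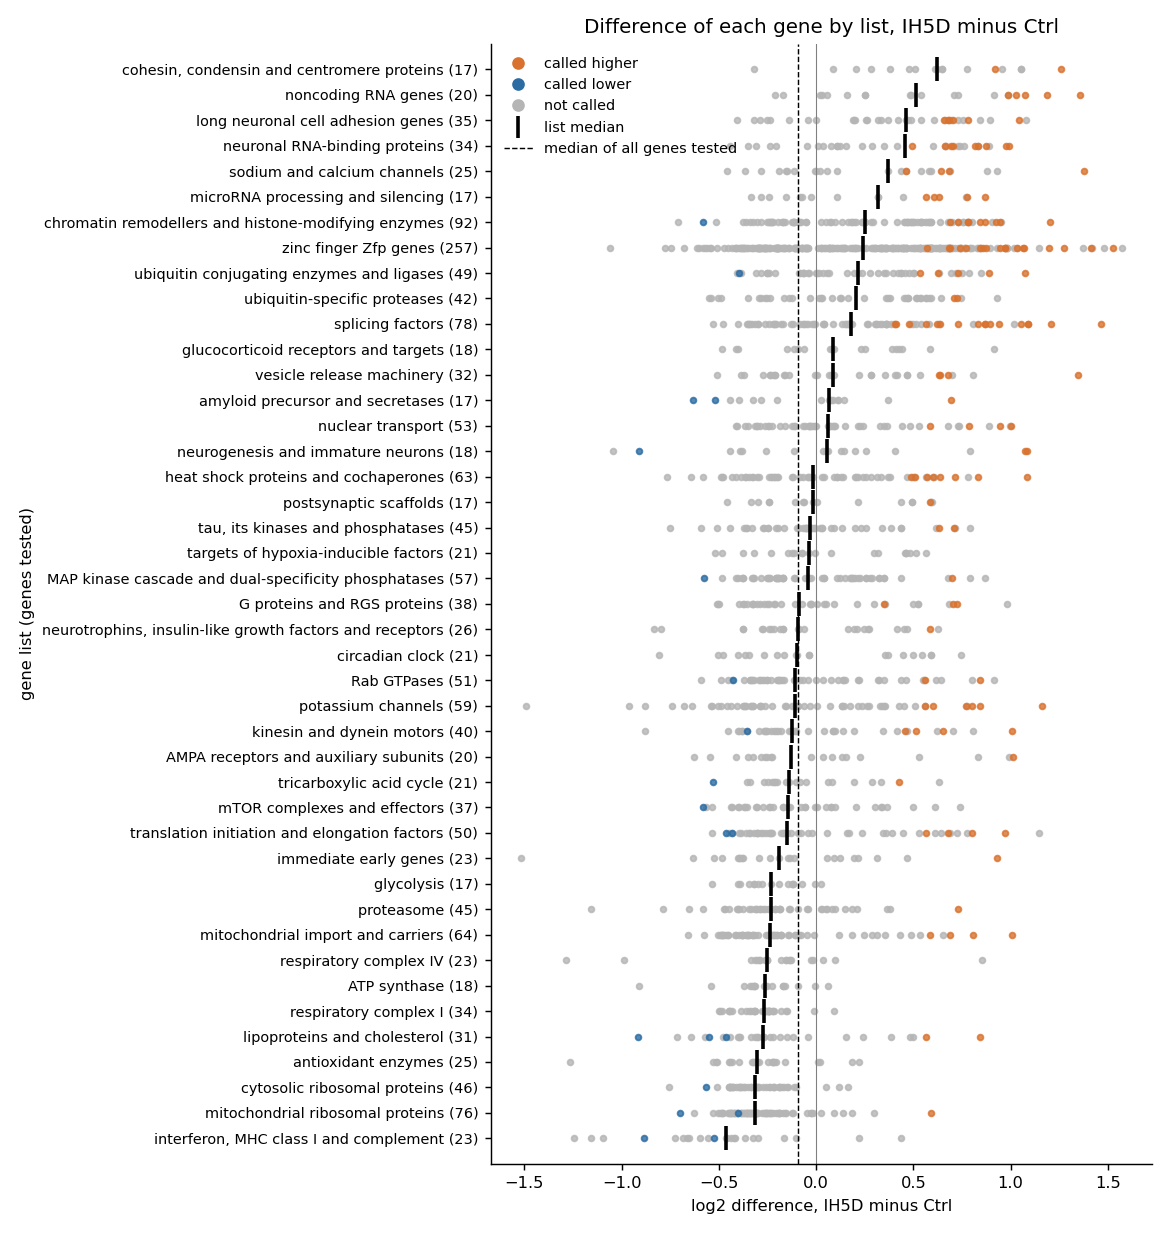
Log2 difference of IH5D minus Ctrl of every tested member of gene lists with at least 15 members (points), with list medians (black ticks) and the median of all genes tested (dashed line). Lists of cell type markers are left out. Lists of RNA-binding, chromatin and adhesion genes lie to the right, up to a median of 0.62, and lists of ribosomal, respiratory and immune genes to the left, down to -0.46, mostly through genes that did not pass.

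Synaptic adhesion genes were among the lists with the highest medians. Of 35 long neuronal cell adhesion genes 6 rose (17.1%) and 0 fell (median 0.46), beside rises of 5.4% of all genes. In the longest quintile of all genes by span 9.11% rose and the median was 0.17. Among genes with a signal above the median, 12.5% of the longest quintile rose. The part of span in this list was not tested. With the replicate block 4 rose over 18 arrays and 20 over the 6 arrays, where 16.7% of all genes rose. Nlgn1, the postsynaptic neuroligin of excitatory synapses, was at 143, 93.8 and 112 in Ctrl and 257, 227 and 227 in IH5D (log2 difference 1.05 ± 0.23, adjusted p = 0.0211). Cadm1, a synaptic adhesion molecule, was at 773, 614 and 748 in Ctrl and 1216, 1067 and 1138 in IH5D (log2 difference 0.69 ± 0.16, adjusted p = 0.026). Opcml, a GPI-anchored protein of neurons, was at 611, 378 and 427 in Ctrl and 817, 709 and 866 in IH5D (log2 difference 0.78 ± 0.20, adjusted p = 0.034). These 3 genes did not overlap between groups. Cntn1 rose by 0.68 and Pcdh9 by 0.66, while Nlgn2, of inhibitory synapses, and Nlgn3 differed by -0.32 and -0.24 without passing. Of 32 genes of the vesicle release machinery 4 rose (12.5%) and 0 fell (median 0.09), and 3 rose with the block over 18 arrays. Erc2, an organizer of the active zone, was at 901, 581 and 704 in Ctrl and 1232, 1011 and 1106 in IH5D (log2 difference 0.63 ± 0.15, adjusted p = 0.0242). Rims2, which docks vesicles near calcium channels, was at 301, 211 and 231 in Ctrl and 432, 344 and 403 in IH5D (log2 difference 0.68 ± 0.16, adjusted p = 0.0264). In both the lowest value was on Ctrl array 2.

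Receptor genes gave a mixed picture, in which single subunits rose. Of 20 genes for AMPA receptors and their auxiliary subunits 1 rose and 0 fell (median -0.13): Gria3 was at 381, 279 and 309 in Ctrl and 792, 567 and 599.6 in IH5D (log2 difference 1.01 ± 0.29, adjusted p = 0.0447, and adjusted p = 0.0627 with the block over 18 arrays). Gria2, which sets calcium permeability, was at 794, 675 and 883 in Ctrl and 1945, 1479 and 1293 in IH5D (log2 difference 0.99 ± 0.31, adjusted p = 0.061). Gria1 was at 1593, 1809 and 1892 in Ctrl and 2251, 1749 and 1903 in IH5D (log2 difference 0.15 ± 0.27, adjusted p = 0.721). The Gria2 groups were apart and the Gria1 groups overlapped. Of 12 NMDA and kainate receptor genes 0 rose and 0 fell (median -0.08, with 2 at an unadjusted p below 0.05), and Grin2b was at 392, 268 and 240.5 in Ctrl and 694, 465 and 525 in IH5D (log2 difference 0.92 ± 0.31, adjusted p = 0.0753), higher on each IH5D array. Of 9 genes for metabotropic glutamate receptors and their Homer partners 2 rose and 0 fell (median 0.27). Grm5, which signals through Gq, was at 277, 224 and 308 in Ctrl and 723, 381 and 464 in IH5D (log2 difference 0.92 ± 0.23, adjusted p = 0.0321), with IH5D array 1 far above the other arrays. Homer1, a scaffold that links Grm5 to calcium stores, was at 319, 205 and 214 in Ctrl and 463, 426 and 489.9 in IH5D (log2 difference 0.93 ± 0.23, adjusted p = 0.03), and its 5 probe sets differed by 0.33 to 1.40. Of 17 postsynaptic scaffold genes 1 rose and 0 fell (median -0.02), namely Dlg2, at 481, 333 and 379 in Ctrl and 616, 534 and 624 in IH5D (log2 difference 0.59 ± 0.15, adjusted p = 0.0302), whereas Dlg4, the gene for PSD-95, differed by -0.24 (adjusted p = 0.243).

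Of 13 genes for GABA receptors and GABA synthesis 3 rose (23.1%, beside 5.4% of all genes) and 0 fell (median 0.50). With the replicate block none passed over 18 arrays. Over the 6 arrays 8 rose and 2 fell, where 16.7% and 18.4% of all genes did. Gabrb2, a subunit of synaptic receptors, was at 347, 264 and 354 in Ctrl and 686, 525 and 532 in IH5D (log2 difference 0.85 ± 0.23, adjusted p = 0.0379, adjusted p = 0.0514 with the block). Gad2, which makes GABA at terminals, was at 279, 248 and 214 in Ctrl and 374, 451 and 413 in IH5D (log2 difference 0.75 ± 0.20, adjusted p = 0.0384, adjusted p = 0.0552 with the block), while Gad1, which makes most GABA of the cell, was at 2576, 2709.9 and 3085 in Ctrl and 3064, 3325 and 3344 in IH5D (log2 difference 0.22 ± 0.10, adjusted p = 0.144). The Gad2 groups were apart and those of Gad1 overlapped. Gabra2 rose by 0.98 (adjusted p = 0.047, adjusted p = 0.0663 with the block). Gabrd, of extrasynaptic receptors on granule cells, differed by -0.71 without passing.

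Of 25 genes in the list of sodium and calcium channels 4 rose (16%, beside 5.4% of all genes) and 0 fell (median 0.37). With the replicate block 1 rose over 18 arrays. Over the 6 arrays 12 rose and 2 fell, where 16.7% and 18.4% of all genes did. The rises included Fgf14 (1.38) and Fgf12 (0.64), which encode fibroblast growth factor homologues and not channels. Of 59 potassium channel genes 6 rose (10.2%) and 0 fell, although 34 differences were negative (median -0.11). There the block gave 5 rises over 18 arrays. Over the 6 arrays it gave 12 rises and 14 falls, beside 16.7% and 18.4% of all genes. Kcnj3, a channel opened by G proteins, was at 249.5, 178 and 216 in Ctrl and 412, 328 and 409.9 in IH5D (log2 difference 0.84 ± 0.15, adjusted p = 0.0103). Kcnd2, which carries the fast outward current of dendrites, was at 555, 414 and 490.4 in Ctrl and 858, 826 and 786 in IH5D (log2 difference 0.77 ± 0.17, adjusted p = 0.0213). Kcnq3, a subunit of the M channel, was at 397, 248 and 287 in Ctrl and 666, 486 and 463 in IH5D (log2 difference 0.80 ± 0.19, adjusted p = 0.0273). All 3 were apart, yet a second probe set of Kcnq3 differed by -0.18. Nalcn, the sodium leak channel, was at 453, 396 and 369.9 in Ctrl and 538, 528 and 613 in IH5D (log2 difference 0.46 ± 0.11, adjusted p = 0.0292). Cacna1d, a calcium channel of neuronal pacemaking, was at 117, 64.2 and 65.8 in Ctrl and 143, 116 and 124 in IH5D (log2 difference 0.68 ± 0.19, adjusted p = 0.04, adjusted p = 0.0548 with the block), one of the few genes called whose groups touched, through Ctrl array 1.

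Genes of tau, amyloid and growth signalling changed singly. Of 45 genes for tau, its kinases and its phosphatases 2 rose (4.44%, near the 5.4% of all genes) and 0 fell (median -0.03). Ppp3ca, the catalytic subunit of calcineurin, was at 2637, 2489 and 2700.4 in Ctrl and 4321, 3957 and 3872 in IH5D (log2 difference 0.63 ± 0.16, adjusted p = 0.03). Ttbk2, a tau tubulin kinase, was at 105, 89.1 and 94.1 in Ctrl and 179.9, 153 and 139.6 in IH5D (log2 difference 0.71 ± 0.20, adjusted p = 0.0447, adjusted p = 0.0542 with the block). Both were higher on every IH5D array. Mapt itself differed by 0.02 (adjusted p = 0.919), Gsk3b by 0.44 (adjusted p = 0.0652), Cdk5 by -0.33 (adjusted p = 0.136) and Ppp2ca, of the main tau phosphatase, by -0.01 (adjusted p = 0.945). Of 17 genes for the amyloid precursor and its secretases 1 rose (5.88%) and 2 fell (11.8%), beside 5.4% and 1.12% of all genes. Adam10, the alpha secretase, was at 308, 273 and 275 in Ctrl and 468, 475 and 443 in IH5D (log2 difference 0.70 ± 0.11, adjusted p = 0.00791), with a narrow spread in both groups. Psen2, a catalytic subunit of gamma secretase, was at 162, 199 and 164 in Ctrl and 130.3, 105 and 103 in IH5D (log2 difference -0.63 ± 0.17, adjusted p = 0.0406, adjusted p = 0.0582 with the block). Aph1a, another subunit, was at 253, 324 and 267 in Ctrl and 203, 184 and 200.5 in IH5D (log2 difference -0.52 ± 0.13, adjusted p = 0.03), though its other probe sets reached 0.15. App and Bace1 differed by 0.03 and 0.11 (adjusted p = 0.888 and adjusted p = 0.574). Adam10 averaged 521 ± 40.7 and Psen2 82.9 ± 15.9 in Ctrl28 (SD, n = 3 arrays), farther from Ctrl than IH5D was.

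Of 37 mTOR genes 0 rose and 1 fell (median -0.14). Akt2, a kinase of insulin signalling, was at 219, 265 and 167 in Ctrl and 142, 153 and 134 in IH5D (log2 difference -0.58 ± 0.16, adjusted p = 0.0393). Mtor was at 523, 459.7 and 502 in Ctrl and 442, 437 and 463 in IH5D (log2 difference -0.14 ± 0.12, adjusted p = 0.433). Of 26 genes for neurotrophins, insulin-like growth factors and their receptors 1 rose, Igf1r, at 213, 159 and 149 in Ctrl and 263, 243 and 268 in IH5D (log2 difference 0.59 ± 0.17, adjusted p = 0.0479, adjusted p = 0.0667 with the block). Bdnf, at 128, 86.4 and 108 in Ctrl and 154, 156 and 130.4 in IH5D, was higher on each IH5D array without passing (log2 difference 0.47 ± 0.29, adjusted p = 0.287). Of 38 genes for G proteins and RGS proteins 3 rose (7.89%, beside 5.4% of all genes) and 0 fell (median -0.09). Among these rises was Gnaq, which couples receptors to phospholipase C, at 722, 488 and 553 in Ctrl and 1095, 884 and 913 in IH5D (log2 difference 0.73 ± 0.14, adjusted p = 0.0129). In the MAP kinase cascade 1 of 57 rose, the exchange factor gene Sos1 (0.70, adjusted p = 0.0337), and 1 fell, the phosphatase gene Dusp8, at 452, 421 and 388 in Ctrl and 293, 261 and 292 in IH5D (log2 difference -0.58 ± 0.14, adjusted p = 0.03).

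Genes of mitochondria and ribosomes were lower in near unison, by small amounts that rarely passed. Of 34 complex I genes 33 were lower, with a median of -0.27 beside -0.09 over all genes, and 0 passed in either direction (6 had an unadjusted p below 0.05). The shortest quintile of all genes by span had a median of -0.28, with 19.3% of differences positive. Among genes with a signal above the median, the shortest quintile had -0.29 and 14.2%. The mitochondrial and ribosomal lists were not matched to other genes by span. In the paired fit of the 6 arrays 30 of the 34 complex I genes fell, against 18.4% of all genes, but with the block over 18 arrays 0 did. Ndufa8 was at 1618, 2029 and 1803 in Ctrl and 1347, 1437 and 1566 in IH5D (log2 difference -0.32 ± 0.11, adjusted p = 0.0862) and Ndufs8 at 2978, 3856 and 3453 in Ctrl and 1948, 2841 and 2628 in IH5D (log2 difference -0.48 ± 0.21, adjusted p = 0.144). In both the IH5D arrays lay below the Ctrl arrays by less than the span of either group. Complex II genes had a median of -0.30 (6 genes), complex III of -0.35 (11), complex IV of -0.25 (23) and the ATP synthase of -0.27 (18), and the 1 that passed was Uqcrc1 in complex III. With the paired fit 4, 6, 8 and 13 of these fell, and with the block over 18 arrays 0, 1, 0 and 0.

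Mitochondrial ribosomal protein genes had a median of -0.32, and of 76 genes 1 rose and 2 fell. Of these genes 38 lay wholly below Ctrl, against 22.9% of all genes. In the paired fit of the 6 arrays 42 fell, against 18.4%, and with the block over 18 arrays 1 fell. Mrps11 was at 273, 358 and 298 in Ctrl and 159.8, 196 and 218 in IH5D (log2 difference -0.70 ± 0.15, adjusted p = 0.0182) and Mrps35 at 143, 169 and 156 in Ctrl and 116, 112 and 126 in IH5D (log2 difference -0.40 ± 0.12, adjusted p = 0.0488, adjusted p = 0.0719 with the block over 18 arrays). Neither gene overlapped between groups. Of 46 cytosolic ribosomal protein genes 0 rose and 1 fell, Rps4l (log2 difference -0.57 ± 0.16, adjusted p = 0.0481, adjusted p = 0.0664 with the block), with a median of -0.31, and 35 fell in the paired fit. Rpl8 was at 2595, 3543 and 3265 in Ctrl and 1994, 2534 and 2345 in IH5D (log2 difference -0.45 ± 0.13, adjusted p = 0.0526), with no overlap. The IH5D means of these lists moved with the array number: the mean log2 signal of the cytosolic ribosomal list was 10.85, 11.26 and 11.18 on Ctrl arrays 1 to 3 and 10.56, 10.93 and 10.91 on IH5D arrays 1 to 3. Each IH5D array was thus below the Ctrl array of its own number, and IH5D arrays 2 and 3 were above Ctrl array 1.

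Glycolysis genes had a median of -0.23 and 16 of 17 were lower, with 0 calls (4 at an unadjusted p below 0.05). In the paired fit 10 fell, against 18.4% of all genes. Tpi1 was at 3659, 5014 and 4508 in Ctrl and 3069, 3486 and 3408 in IH5D (log2 difference -0.39 ± 0.12, adjusted p = 0.0578) and Pkm, the pyruvate kinase of brain, at 1756, 1900.2 and 1644 in Ctrl and 1479.7, 1411 and 1349.5 in IH5D (log2 difference -0.32 ± 0.13, adjusted p = 0.125). In the tricarboxylic acid cycle 1 of 21 rose, Sucla2 (0.42, adjusted p = 0.0398, adjusted p = 0.0589 with the block), and 1 fell, Pcx, which refills the cycle from pyruvate, at 299, 361 and 309.9 in Ctrl and 209.8, 228 and 232 in IH5D (log2 difference -0.53 ± 0.16, adjusted p = 0.0496, adjusted p = 0.0666 with the block). Antioxidant enzymes had a median of -0.31 with 0 calls among 25 (8 at an unadjusted p below 0.05, all lower). Prdx2, a peroxiredoxin, was at 1906, 2805 and 2329 in Ctrl and 1569, 1926 and 1812 in IH5D (log2 difference -0.39 ± 0.14, adjusted p = 0.0783). Gpx1, a glutathione peroxidase, was at 722, 913 and 851 in Ctrl and 519, 702 and 612 in IH5D (log2 difference -0.44 ± 0.17, adjusted p = 0.111). Of 64 genes of mitochondrial import and carriers 50 were lower (median -0.24), 4 rose, near the 5.4% of all genes, and 0 fell. In the paired fit of the 6 arrays 22 fell and 6 rose, beside 18.4% and 16.7% of all genes. Slc25a46, an outer membrane protein of mitochondrial dynamics, was at 418, 330.3 and 348 in Ctrl and 595, 569 and 764 in IH5D (log2 difference 0.81 ± 0.14, adjusted p = 0.00899). Timm21, of the inner membrane translocase, was at 38.5, 41.6 and 40.3 in Ctrl and 55.8, 74.9 and 64.3 in IH5D (log2 difference 0.69 ± 0.16, adjusted p = 0.0241).

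Of 49 ubiquitin conjugating enzymes and ligases 5 rose (10.2%, beside 5.4% of all genes) and 1 fell (median 0.22). Of 42 ubiquitin-specific proteases 2 rose (4.76%) and 0 fell (median 0.21). With the block over 18 arrays 4 and 0 of these rose and none fell. The rises included Mib1, a ligase of Notch signalling, at 269, 213 and 177 in Ctrl and 441, 381 and 384 in IH5D (log2 difference 0.89 ± 0.19, adjusted p = 0.0175) and Ube2v2 at 124, 114 and 121 in Ctrl and 268, 237 and 252 in IH5D (log2 difference 1.08 ± 0.26, adjusted p = 0.0278). Of 45 proteasome genes 1 rose and 0 fell (median -0.23), Psmc6 at 241, 201 and 186 in Ctrl and 324, 337 and 377 in IH5D (log2 difference 0.73 ± 0.20, adjusted p = 0.0396, adjusted p = 0.0553 with the block). In the paired fit 21 proteasome genes fell and 3 rose, beside 18.4% and 16.7% of all genes. Of 63 heat shock proteins and cochaperones 8 rose (12.7%, beside 5.4% of all genes) and 0 fell (median -0.02). With the block over 18 arrays 3 rose. Dnajb6, a cochaperone that holds back aggregation, was at 1082, 969 and 1236 in Ctrl and 1416, 1474 and 1708 in IH5D (log2 difference 0.49 ± 0.11, adjusted p = 0.0209). Dnajc7 was at 540.0, 370.3 and 433 in Ctrl and 657, 588 and 645 in IH5D (log2 difference 0.51 ± 0.14, adjusted p = 0.0395, adjusted p = 0.0572 with the block). Of 50 translation factor genes 4 rose (8%) and 2 fell (4%), beside 5.4% and 1.12% of all genes. With the block over 18 arrays 3 rose and 0 fell. Those called included Eif3a at 551, 389 and 341 in Ctrl and 929.7, 775 and 764 in IH5D (log2 difference 0.97 ± 0.20, adjusted p = 0.014) and Eif2b4, of the exchange factor of eIF2, at 383, 506 and 407 in Ctrl and 321, 319 and 296 in IH5D (log2 difference -0.46 ± 0.12, adjusted p = 0.0358, adjusted p = 0.0516 with the block).

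Of 31 genes for lipoproteins and cholesterol 2 rose (6.45%) and 3 fell (9.68%), beside 5.4% and 1.12% of all genes (list median -0.27). With the block over 18 arrays 2 rose and 2 fell. Abca1, which exports cholesterol to lipoproteins, was at 175, 180.1 and 145 in Ctrl and 279, 356 and 266 in IH5D (log2 difference 0.84 ± 0.18, adjusted p = 0.0191). Hmgcs1, an early enzyme of cholesterol synthesis, was at 1273, 970.2 and 1139.6 in Ctrl and 1613, 1444 and 1949 in IH5D (log2 difference 0.56 ± 0.13, adjusted p = 0.0261). Scap, the sterol sensor that escorts SREBP, fell, at 596, 695 and 611 in Ctrl and 439, 403 and 455 in IH5D (log2 difference -0.55 ± 0.13, adjusted p = 0.0289). The 3 genes had no overlap between groups. Of 40 kinesin and dynein motor genes 4 rose (10%) and 1 fell (2.5%), with a median of -0.12. With the block 2 rose and 0 fell over 18 arrays. Over the 6 arrays 9 rose and 7 fell, where 16.7% and 18.4% of all genes did. Dynlt3, a light chain of dynein, was at 514, 432 and 417 in Ctrl and 1037, 765 and 949 in IH5D (log2 difference 1.01 ± 0.18, adjusted p = 0.0103). Kif5c, a neuronal kinesin heavy chain, was at 2009, 1578 and 1620.1 in Ctrl and 2535, 2278 and 2598 in IH5D (log2 difference 0.52 ± 0.12, adjusted p = 0.0278).

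Markers of acute activity, time of day and stress gave 1 call in 3 lists. Of 23 immediate early genes 1 rose, the Homer1 described above, and 0 fell (median -0.19). Egr1 was at 1546, 1849.8 and 1723 in Ctrl and 1081, 1133 and 1353 in IH5D (log2 difference -0.52 ± 0.23, adjusted p = 0.148), Fos at 84.6, 158 and 80.5 in Ctrl and 64.1, 146 and 129 in IH5D (log2 difference 0.06 ± 0.56, adjusted p = 0.952) and Arc at 140.0, 286 and 92.8 in Ctrl and 73.6, 148 and 156 in IH5D (log2 difference -0.38 ± 0.48, adjusted p = 0.606). Egr1 was lower on each IH5D array, and Fos and Arc overlapped widely. Of 21 clock genes 0 rose and 0 fell (median -0.10, with 4 at an unadjusted p below 0.05). Dbp, an output of the clock, was at 1566, 2011 and 1579 in Ctrl and 1168, 1198 and 1319.8 in IH5D (log2 difference -0.48 ± 0.23, adjusted p = 0.17), Per1 at 227, 269 and 223 in Ctrl and 181, 184 and 177 in IH5D (log2 difference -0.40 ± 0.22, adjusted p = 0.222) and Per2 at 111, 116 and 89.7 in Ctrl and 122, 129 and 153 in IH5D (log2 difference 0.35 ± 0.17, adjusted p = 0.175). Dbp and Per1 were lower and Per2 higher on each IH5D array. Since the hour at which Ctrl mice were killed is not given, the part of the hour in these values was not tested. Of 18 genes of the glucocorticoid receptors and their targets 0 rose and 0 fell (median 0.09, with 3 at an unadjusted p below 0.05), with Fkbp5 at 318, 298 and 284 in Ctrl and 302, 349 and 296 in IH5D (log2 difference 0.07 ± 0.15, adjusted p = 0.768) and Sgk1 at 1749, 1767 and 919 in Ctrl and 2103, 2134 and 1422 in IH5D (log2 difference 0.39 ± 0.21, adjusted p = 0.218), where array 3 was the lowest in both groups.

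Cell type markers gave few calls, and some varied widely between arrays of a group. Of 17 markers of the choroid plexus 0 rose and 0 fell (0 at an unadjusted p below 0.05, median -0.80), and their summed signal ranged from 2241 to 21492 in Ctrl and from 3665 to 20227 in IH5D. Ttr, its most abundant transcript, was at 12808, 15993 and 1584 in Ctrl and 9621, 14804 and 3084 in IH5D. The third array was the lowest in both groups. Of 11 markers of meninges and fibroblasts 1 fell, the GABA transporter gene Slc6a13, at 71.0, 31.0 and 35.5 in Ctrl and 10.8, 20.9 and 24.2 in IH5D (log2 difference -1.28 ± 0.36, adjusted p = 0.0429, adjusted p = 0.0567 with the block), with a summed signal of 7590 to 11679 in Ctrl and 6622 to 8519 in IH5D. Of 9 ependymal markers 9 were lower and 0 passed (1 at an unadjusted p below 0.05), and their summed signal was 2118, 2961 and 1824 in Ctrl and 1049, 1970 and 1441 in IH5D. Each IH5D array was below the Ctrl array of its own number. In the paired fit of the 6 arrays 6 of the 9 ependymal and 6 of the 17 choroid plexus markers fell, against 18.4% of all genes. With the block over 18 arrays 0 fell in either list. The part of these tissues in the results above was not tested. Neocortical markers (15 genes, median -0.03, summed signal 3776 to 4982 in Ctrl and 4454 to 4852 in IH5D) and those of striatum and septum (13 genes, median -0.03, 1792 to 2299 and 1858 to 2441) overlapped, with 0 calls in either list (0 and 2 at an unadjusted p below 0.05, and 1 call of striatum and septum with the block over 18 arrays).

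All markers of hippocampal neurons were measured, 17 of CA1 and CA3 pyramidal cells and 13 of dentate granule cells, but the 15 neocortical markers passed the minimum signal too, so this does not set the tissue apart from cortex. Summed signals were 8185 to 8892 in Ctrl and 7673 to 8312 in IH5D for the former and 2697 to 3049 and 2967 to 3663 for the latter. None of the 30 hippocampal markers passed (3 and 3 at an unadjusted p below 0.05), with medians of -0.12 and 0.22. Of 18 genes of neurogenesis and immature neurons 2 rose and 1 fell. Dcx, a microtubule protein of young neurons, was at 28.7, 23.9 and 15.7 in Ctrl and 53.5, 39.9 and 47.0 in IH5D (log2 difference 1.07 ± 0.26, adjusted p = 0.0292). Sox11, a transcription factor of the same cells, was at 55.7, 38.9 and 36.5 in Ctrl and 99.8, 87.4 and 86.7 in IH5D (log2 difference 1.09 ± 0.20, adjusted p = 0.0127). Hes5, a Notch target of progenitors and astrocytes, was at 51.3, 74.4 and 77.3 in Ctrl and 33.4, 30.4 and 43.9 in IH5D (log2 difference -0.91 ± 0.26, adjusted p = 0.044, adjusted p = 0.0522 with the block). All 3 signals were low on this scale, between 15.7 and 99.8.

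Glial and immune genes gave few calls. Of 19 astrocyte markers 1 rose and 1 fell (median -0.07): Slc4a4, a bicarbonate transporter, was at 399.6, 322 and 302 in Ctrl and 509, 470.1 and 561 in IH5D (log2 difference 0.60 ± 0.16, adjusted p = 0.0382, adjusted p = 0.0562 with the block) and Mlc1, a membrane protein of astrocyte endfeet, at 605, 740.4 and 664 in Ctrl and 489, 419 and 427 in IH5D (log2 difference -0.59 ± 0.15, adjusted p = 0.034, adjusted p = 0.0525 with the block). Gfap was at 314, 444 and 358 in Ctrl and 242, 279 and 251 in IH5D, lower on each IH5D array without passing (log2 difference -0.52 ± 0.38, adjusted p = 0.356). Of 18 microglial markers 0 rose and 1 fell (median -0.31), C1qc at 230.1, 272 and 274 in Ctrl and 166, 204 and 169.9 in IH5D (log2 difference -0.52 ± 0.15, adjusted p = 0.0491, adjusted p = 0.0669 with the block), and the summed signal was 4933 to 6131 in Ctrl and 4291 to 4918 in IH5D. The homeostatic marker P2ry12 differed by 0.79 and Gpr34 by 0.53, against Tyrobp at -0.58 and Cd68 at -0.40, none of which passed. Of 23 genes of interferon response, MHC class I and complement 0 rose and 2 fell (median -0.46, the lowest of the lists outside the cell types), and 21 of 23 differences were negative. In the paired fit of the 6 arrays 13 fell, against 18.4% of all genes, while 1 fell with the block over 18 arrays. Of the 2 that fell in the reported fit, 1 was C1qc, just given, and the other Ifi35. H2-K1 was at 338, 351 and 259 in Ctrl and 214, 236 and 176 in IH5D (log2 difference -0.60 ± 0.19, adjusted p = 0.0578) and Ifitm1 at 102, 139.9 and 93.1 in Ctrl and 38.7, 67.0 and 52.5 in IH5D (log2 difference -1.10 ± 0.38, adjusted p = 0.0776). H2-K1 and Ifitm1 were lower on every IH5D array and did not pass. Of 16 markers of oligodendrocytes 1 rose, Mobp, at 2477, 1985 and 2567 in Ctrl and 3196, 3082 and 3551 in IH5D (log2 difference 0.49 ± 0.12, adjusted p = 0.026), and of 19 of vessels 1 rose, the pericyte gene Rgs5, at 497, 348 and 329 in Ctrl and 670.5, 599.8 and 609 in IH5D (log2 difference 0.70 ± 0.18, adjusted p = 0.03).

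Direction followed the span of the gene. Genes that rose had a median span of 48.2 kb (623 genes with a span in the RefSeq table on GRCm38.p6), against 12.7 kb for the 131 that fell and 25.1 kb for all 11634 tested genes with a span. Among the shortest quintile, up to 8.36 kb, 1.33% rose and 1.89% fell, and 19.3% of differences were positive. Among the longest quintile, from 79.2 kb, 9.11% rose and 0.516% fell, and 63.8% were positive. Among genes with a mean signal above the median the share that rose went from 1.37% in the shortest quintile to 12.5% in the longest. Below the median it went from 1.63% to 6.02% in the fourth quintile and 5.67% in the longest. The median GC content of promoters was 62.7% for genes that rose, 61.7% for those that fell and 61.7% for all. Over quintiles of promoter GC the share that rose was lowest in the second, at 4.01%, and highest in the top one, at 7.49%, with median differences of -0.16 and -0.01. By chromosome the share that rose was highest on X, with 44 of 378 genes (11.6%), and lowest on 7, with 24 of 848 (2.83%).

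The same contrast of long with short genes was read on each array as the median log2 signal of the longest quintile minus that of the shortest, each gene first set against its mean over 18 arrays. It was -0.23, -0.70 and -0.53 on Ctrl arrays 1 to 3 and 0.07, -0.13 and -0.07 on IH5D arrays 1 to 3, a difference of 0.44 between means of -0.48 ± 0.24 and -0.04 ± 0.10 (SD, n = 3; exact permutation test, two-sided p = 0.1, the smallest that 3 against 3 arrays allow). These 6 arrays also gave the trend by span above, so the test is not separate support for it. The Ctrl arrays held the lowest 3 values of the 18 arrays. In the other groups it ran from -0.08 to 0.01 in IH5DR2, from -0.21 to 0.26 in Ctrl28, from -0.01 to 0.23 in IH28D and from 0.26 to 0.33 in 12m, so that 2 of the 3 Ctrl28 arrays, from mice without IHT, lay above all IH5D arrays. Of the 6 arrays, Ctrl array 2 had the lowest 3' to 5' gap and also the lowest value here, and its part in this contrast was not tested.

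**Figure D4:**
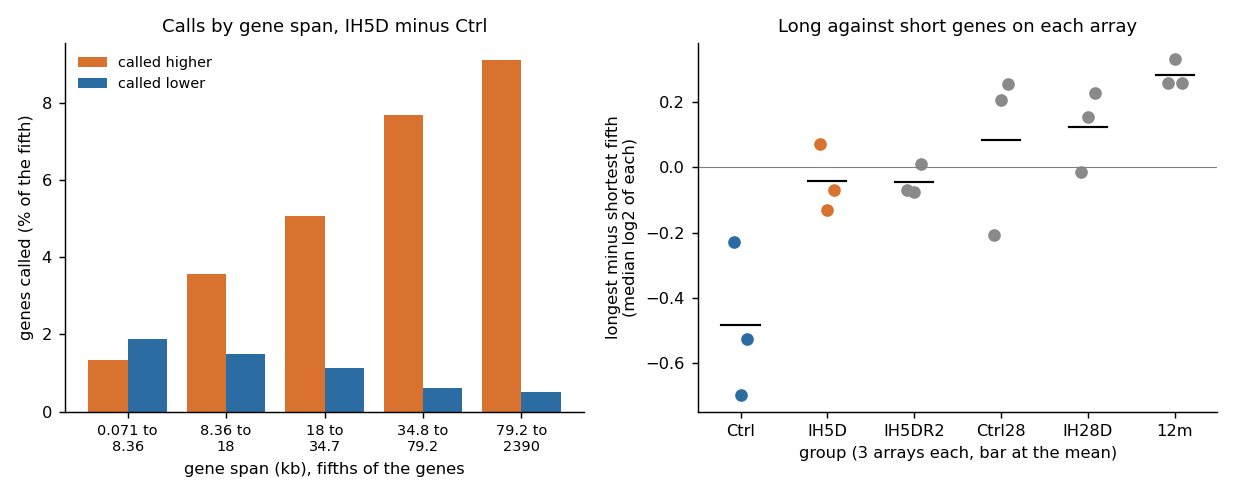
Left, percentage of genes called higher or lower in IH5D in quintiles of gene span (kb, 2326 or 2327 genes each). Right, median log2 signal of the longest minus the shortest quintile on each of the 18 arrays, with bars at group means. Rises go from 1.33% to 9.11% with span, and the Ctrl arrays lie below all other arrays.

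Probe sets without a named gene moved with the rises. Over all 22932 probe sets above the minimum signal 1435 passed (6.26%), 1283 higher and 152 lower. Among the 2486 without a gene name 250 rose (10.1%) and 6 fell, with a median of 0.45, against 5.07% and a median of -0.04 for probe sets of 1 gene. Where a called gene had several probe sets above the minimum (481 genes), all of them lay on the same side of 0 in 418, another passed in the same direction in 117, and 0 passed in the opposite direction.

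After 2 days of recovery no gene passed against IH5D (0 of 11656 in limma, 418 at an unadjusted p below 0.05), and the comparison uses the same IH5D arrays. Hif1a differed by -0.18 between IH5DR2 and IH5D, Adam10 by -0.10, Elavl2 by -0.06, Meg3 by -0.16 and Nlgn1 by 0.04. Grm5, at 731 ± 107 in IH5DR2 beside 523 ± 178 in IH5D, differed by 0.53, and Hes5, at 53.9 ± 23 beside 35.9 ± 7.07, by 0.52 (SD, n = 3 arrays, adjusted p = 0.999 for each of the 7 genes). A miss does not show that levels were equal. The effect of 28 days minus that of 5 days, each against its own control, passed in 1125 genes (9.65%), 766 with a positive term and 359 with a negative one. In Hif1a it was -0.94 (adjusted p = 0.0211), in Adam10 -0.81 (adjusted p = 0.00378), in Hdac5 1.04 (adjusted p = 0.00141), in Psen2 1.30 (adjusted p = 0.00384) and in Kcnj3 -1.14 (adjusted p = 0.00364), each opposite in sign to its difference at 5 days. Because the difference at 5 days is one of its terms, a gene chosen for that difference tends to the opposite sign. Without Ctrl28 replicate 1, whose 3' to 5' gap was 2.39, the count was 3331.

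**Figure D5:**
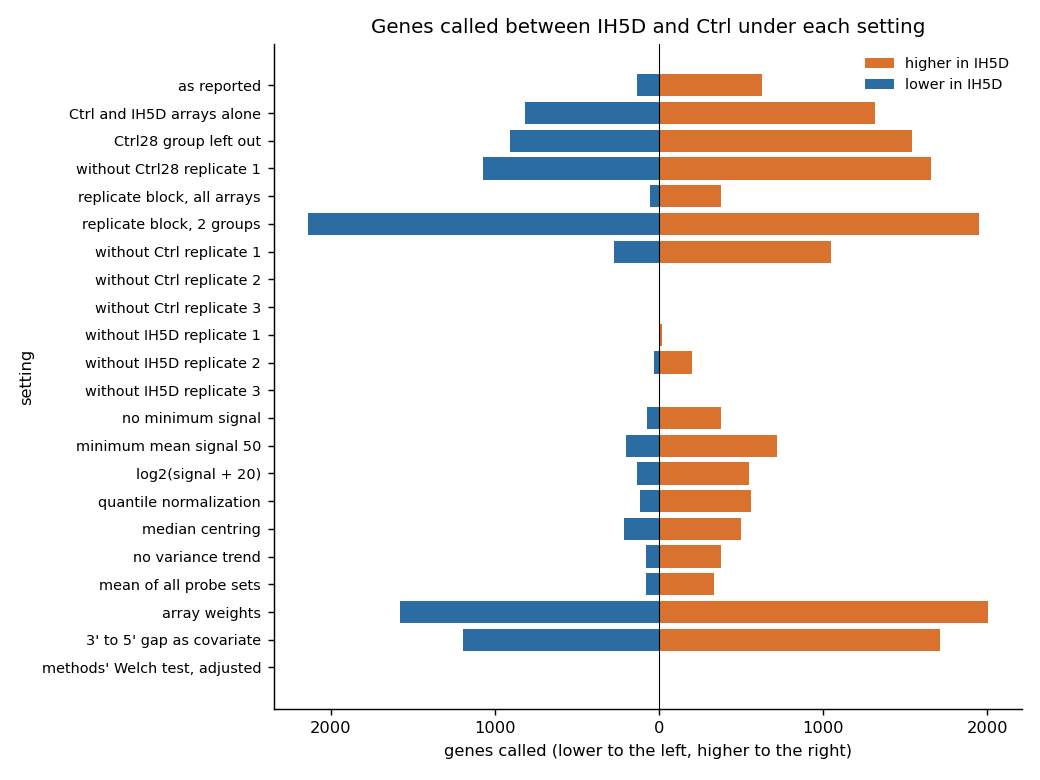
Number of genes called higher (right) and lower (left) in IH5D under the reported fit and 21 alternatives. Counts run from 0, without Ctrl replicate 2 or 3 and with the adjusted test of the study's methods, to 4092 with the replicate block over the 6 arrays, and rises outnumber falls in every setting with calls but that one.

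Across the 14 alternative limma fits that kept all 6 arrays, 162 of the 629 rises and 28 of the 131 falls passed in the same direction every time.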

How the data were processed

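Hippocampal RNA was measured on Affymetrix Mouse Genome 430 2.0 arrays, 3 per group, and grouped by the sample labels. The deposited values are log2 signals that the authors computed with MAS5. No scanner files were used here, and the number of arrays limits the precision. Of 45101 probe sets, 64 manufacturer controls were left out, 34945 had 1 gene name in the platform annotation, 932 several and 9160 none, and symbols were updated through gene IDs (34741 found). Probe sets with a mean signal of at least 20 over all arrays were kept (22932), and each gene was represented by the one with the highest mean. limma 3.58.1 (R 4.3.3) fitted 1 mean per group to all 18 arrays with a variance trend, and Benjamini-Hochberg adjustment ran over 11656 genes with a threshold of 0.05. The procedure was tested on simulated data.

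Genes were named by a rule: the 14 largest rises and 14 largest falls whose brighter group averaged a signal of 100 or more, without overlap, up to 4 members of each list with the smallest p, the 5 largest terms in each direction of the comparison with 28 days, and a fixed set of hypoxia, activity and Alzheimer genes. Other list members were named after their values were seen. Members, lists and tests were chosen with earlier results of these data known. Ctrl and IH5D arrays of the same replicate number deviated together from their group means (r = 0.153, 0.289 and 0.239 for numbers 1 to 3). No label pairs the arrays, and the numbers were taken to pair them for this reason alone. The fit with the replicate number as a block is given as counts for lists and beside the adjusted p of some genes. Genes named without it may not have passed under the block. Other alternatives were the arrays in the fit, each replicate left out, the minimum signal (none or 50), an offset of 20, quantile normalization, median centring, no variance trend, the mean of all probe sets, array weights, a covariate for the 3' to 5' gap, and the test of the study's methods on unlogged signals.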

Additional observations from a re-analysis of the deposited data

Results flagged for a closer look

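The effect of 28 days of IHT (IH28D minus Ctrl28) differed from that of 5 days (IH5D minus Ctrl) by the interaction contrast of the limma fit in the genes named here, those with the largest term in each direction by the rule for named genes and a member of the leading rises. The term, 28 days minus 5 days on the log2 scale, was 2.51 for Nnat (adjusted p = 0.0189), 2.49 for Cacng3 (0.00191), 2.40 for Kif1a (0.000796), 2.34 for Ldb1 (0.00116) and 2.23 for Get3 (0.000162). It was -2.12 for Megf11 (0.0174), -1.85 for Nup54 (0.0182), -1.52 for Rap2c (0.00749), -1.44 for Xrn2 (0.0109) and -1.39 for Gnal (0.00878). Ctrl28 replicate 1, whose 3' to 5' gap was 2.39, enters each of these terms, and single terms without it are not given here.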

How the results depend on the processing

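All 760 genes called kept their sign in every alternative that tested them, except 1 gene with the mean of all probe sets. In 756 of them the groups did not overlap, so leaving out an array could not change the sign. The number called varied widely. Genes called (higher and lower) were 2130 (1314 and 816) with the Ctrl and IH5D arrays alone, 2449 (1540 and 909) without the Ctrl28 group, 434 (377 and 57) with the replicate block over all arrays, 4092 (1951 and 2141) with the replicate block in the 2 groups alone, 449 (379 and 70) with no minimum signal, 454 (377 and 77) with no variance trend, 415 (336 and 79) with the mean of all probe sets, 3589 (2008 and 1581) with array weights, 2912 (1715 and 1197) with a covariate for the 3' to 5' gap, and 0 (0 and 0) with the methods' unequal-variance test after adjustment, where 2589 had an unadjusted p below 0.05. A minimum signal of 50 gave 204 lower and median centring 211. Leaving out 1 array gave 0 to 2727 genes called, 0 to 1656 higher and 0 to 1071 lower, with the highest without Ctrl28 replicate 1 and 232 without IH5D replicate 2. Without Ctrl replicate 1 there were 1323 (1046 and 277). Probe sets called ranged from 10 to 2577 with 1 array left out, and were 762 with no minimum and 3586 with the 2 groups alone. IH5DR2 against IH5D gave 0 to 1 genes with 1 array left out, 1 with the replicate block and 8 with the 2 groups alone. The 28-day effect minus the 5-day effect passed in 3331 genes without Ctrl28 replicate 1 and in 693 with the 4 groups alone. The causes were not tested. For named genes and list medians, 6052 values kept their direction and side of the threshold or moved little, 625 passed newly, 1001 no longer passed and 282 medians moved further.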
